A study of Homo sapiens with 6 samples.

Results

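The 7SL and 7SK RNAs and their pseudogenes were examined in AGO2-RIP-seq libraries of MDA-MB-231 cells. Members were the genes whose symbol starts with RN7SL or RN7SK and whose counts summed to at least 50 over the 4 mimic libraries. Of 974 such symbols among the 60708 genes of the tables, 75 were members. These were RN7SL1, RN7SL3, 66 of 677 RN7SL pseudogenes and 7 of 293 RN7SK pseudogenes. Just inside the minimum were RN7SL233P with 53 counts, RN7SL181P with 52 and RN7SL47P with 51, and just outside it RN7SL543P with 49, RN7SL635P with 48 and RN7SL33P with 48. RN7SL2 and RN7SK, the other functional genes of the family, had 0 counts in every library and so were no members.

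MDA-MB-231 is an established triple-negative breast cancer cell line. The cells were transfected for 18 hours with a miR-99b-5p mimic or a negative control (scrambled) at 25 nM, and RNA was taken from the material bound to an anti-AGO2 antibody (AGO2-IP) and from the unbound flow-through. By the labels, the mimic had 2 replicates of each fraction, and the control had 1 library of each fraction. A sample list of the study names both control libraries as control replicates and gives them no fraction, and the labels were followed here, so every comparison of the control fractions rests on the labels. Replicates of one cell line measure the spread between cultures of that line, and a value from a single control library has no replicate check.

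7SL RNA is the RNA backbone of the signal recognition particle, which carries ribosomes that make secreted and membrane proteins to the endoplasmic reticulum. 7SK RNA holds P-TEFb, the kinase that releases paused RNA polymerase II, in an inactive complex with HEXIM and LARP7 proteins. Both RNAs are made by RNA polymerase III in nearly all cells, and both have left many copies in the human genome, most of them truncated or mutated pseudogenes. AGO2 is the Argonaute protein that carries miRNAs to their targets.

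Counts on genes ranged from 38022779 to 48544756 in the mimic libraries and were 8076375 and 7772149 in the control AGO2-IP and flow-through. The 6 markers expected of MDA-MB-231 were present and summed to 2427 to 4433 CPM (counts per 1000000 gene counts) in a library. The 5 markers expected to be absent or low summed to 13.2 to 47.9 CPM, and the highest value was 24.8 CPM, of GATA3 in the control flow-through. The 3 markers of blood cells and liver lay at or below 1.86 CPM. The mitochondrial share of gene counts was 43.4% for the control flow-through and 3.48% for the control AGO2-IP, but no mimic library exceeded 0.125%. Read pairs that mapped to several places, which the tables count on no gene, made up 2.38% to 19.2% of the pairs of a mimic library but 76.7% and 73.7% in the control AGO2-IP and flow-through. Their part in the family's values, for a family of many like copies, was not tested.

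RN7SL1, RN7SL2 and RN7SL3 lie on chromosome 14 and are nearly the same RNA. In the human genome build hg38 (GRCh38) with the GENCODE 44 annotation, RN7SL1 lies at chr14:49586580-49586878 on the plus strand, inside an intron of RPS29 on the opposite strand. RN7SL3 lies at chr14:49853616-49853914 on the minus strand and outside other genes. RN7SL2 lies at chr14:49862550-49862849 on the minus strand. RN7SL1 was 98.3% identical to RN7SL2, with 4 substitutions and 1 gap, and 97.7% identical to RN7SL3, with 7 substitutions. So few bases decide to which of the genes a read is assigned. Of the windows of 100 bases in RN7SL1, 51 of 200 occurred once in hg38, against 176 of 200 in RN7SL3, 36 of 201 in RN7SL2 and 110 of 229 in RN7SK. A read pair can span more than 100 bases, so these numbers describe the sequences and not the share of pairs that could be placed.

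The 0 counts of RN7SL2 and RN7SK may be no measure of their level. The annotation release used for counting was not given, so the overlaps below are those of GENCODE 44. In GENCODE 44 all bases of RN7SL2 are also exon of a lncRNA, ENSG00000282885, on the same strand (chr14:49861176-49868192). All bases of RN7SK, at chr6:52995621-52995948 on the plus strand, are also exon of another gene model named 7SK (chr6:52995620-52995950). STAR counts a pair that falls on exons of 2 genes for neither of them. The 7SK model had 0 counts in all 6 libraries as well, and ENSG00000282885 had 73 and 39 counts in mimic AGO2-IP, 223 and 26 in mimic flow-through, and 9 and 10 in control AGO2-IP and flow-through. Pairs left out because they lay on several genes made up 16.7% and 19.2% of all pairs in the mimic flow-through, 8.02% and 7.63% in the mimic AGO2-IP, 1.78% in the control flow-through and 0.598% in the control AGO2-IP. How many of them came from RN7SL2 or RN7SK was not tested, so RN7SK itself could not be followed and only its pseudogenes had counts.

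RN7SL1 held 98.4% of the members' counts in the mimic libraries and lay far lower in AGO2-IP than in flow-through. The mimic AGO2-IP libraries held 47852 and 39314 counts of it, and the mimic flow-through libraries 5379433 and 12493026. The control AGO2-IP held 6245 counts and the control flow-through 334328. As a share of gene counts, RN7SL1 was 0.102% and 0.103% in mimic AGO2-IP, 11.4% and 25.7% in mimic flow-through, 0.0773% in control AGO2-IP (95% Wilson interval 0.0754% to 0.0793%) and 4.30% in control flow-through (4.29% to 4.32%). These intervals cover counting error only. The 2 AGO2-IP replicates were nearly equal, while the 2 flow-through replicates differed by 2.32-fold in counts, and every AGO2-IP library lay below every flow-through library. RN7SL1 was the most counted gene of both mimic flow-through libraries and the 3rd of the control flow-through, but its AGO2-IP ranks were 88 and 80 for the mimic and 116 for the control.

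RN7SL3, the near copy of RN7SL1, had 437 and 316 counts in mimic AGO2-IP, 47286 and 108683 in mimic flow-through, 40 in control AGO2-IP and 2809 in control flow-through. Both genes are 299 bases long, but 51 of 200 windows of RN7SL1 and 176 of 200 of RN7SL3 occurred once in hg38. Their counts are therefore no direct comparison of their levels. For each 1000 counts on RN7SL1, RN7SL3 had 9.13 and 8.04 in mimic AGO2-IP, 8.79 and 8.70 in mimic flow-through, 6.41 in control AGO2-IP and 8.40 in control flow-through. RN7SL3 thus kept close to RN7SL1 in every library, and the control AGO2-IP, with 40 counts, was the lowest.

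In mimic AGO2-IP against mimic flow-through, edgeR's quasi-likelihood test gave RN7SL1 a log2 fold change of -7.65 (SE 0.84, adjusted p = 0.00775). RN7SL3 had one of -7.67 (SE 0.87, adjusted p = 0.00775). By counts summed over the 2 libraries of a fraction and divided by their normalized sizes, RN7SL1 was 185-fold higher in flow-through. Within replicate 1, RN7SL1 had 112 times as many CPM in flow-through as in AGO2-IP, and within replicate 2 it had 249 times as many. In the control pair, the CPM of RN7SL1 were 55.6 times as high in flow-through. The direction was the same in all 3 pairs of libraries.

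**Figure D1:**
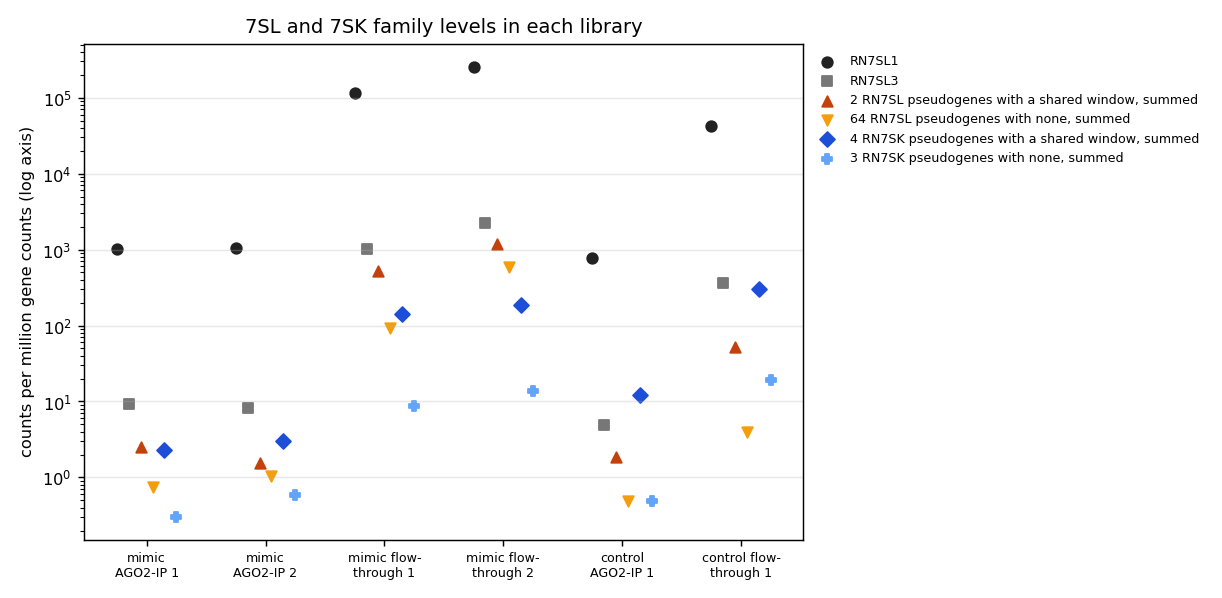
CPM (vertical log axis) of RN7SL1, RN7SL3 and 4 sums of pseudogenes in each of the 6 libraries; a shared window is a run of 100 bases that the pseudogene has in common with RN7SL1, RN7SL2, RN7SL3 or RN7SK. Every point of the mimic flow-through libraries lies above the same symbol in the mimic AGO2-IP libraries, and RN7SL1 spans 773 to 257351 CPM over the 6 libraries.

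The pseudogenes differed from their parent genes at many more positions. The 66 RN7SL pseudogenes were 71.5% to 88.3% identical to RN7SL1 (median 83.6%), and the 7 RN7SK pseudogenes were 76.9% to 84.3% identical to RN7SK, in lengths of 243 to 335 bases. All 100-base windows were unique in hg38 in 64 of the 66 RN7SL pseudogenes. The other 2, RN7SL4P (chr3:15738515-15738809) and RN7SL5P (chr9:9442060-9442380), shared 93 and 110 windows with the 7SL genes. Each lies in an intron on the opposite strand, in ANKRD28 and PTPRD. Of the RN7SK pseudogenes, RN7SKP71 shared 46 windows with RN7SK, RN7SKP203 shared 44, RN7SKP80 shared 29 and RN7SKP255 shared 4. A stretch of 30 bases (bases 100 to 129 of RN7SL1) sets the 2 sharing copies beside copies that share no window. It was chosen as the gap-free stretch with the most differences among the copies compared, so it is not a typical one. Capitals in RN7SL1 mark positions that differ in any copy shown, and capitals in a copy mark its own differences from RN7SL1.
RN7SL1: CGatcgggtgtccgcactaagttCggcatc
RN7SL4P: cgatcgggtgtccgcactaagttcggcatc
RN7SL5P: cgatcgggtgtccgcactaagttcggcatc
RN7SL674P: cgatcgggtgtccgcactaagttTggcatc
RN7SL151P: GTatcgggtgtccgcactaagttTggcatc
RN7SL4P and RN7SL5P had no difference from RN7SL1 here, RN7SL674P had 1 and RN7SL151P had 3. The sharing RN7SK copies are set against RN7SK (bases 30 to 59 of the gene) in the same way, because RN7SK itself had no counts.
RN7SK: gtCaccccattgatcgcCAgggttgattCG
RN7SKP203: gtTaccccattgatcgccagggttgattcg
RN7SKP80: gtcaccccattgatcgccagggttgattcA
RN7SKP255: gtcaccccattgatcgccagggttgattTg
RN7SKP71: gtcaccccattgatcgcTGgggttgattcg
The first 3 copies differed from RN7SK at 1 base each in this stretch and RN7SKP71 at 2.

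The pseudogenes with a shared window were the most counted ones. All 6 were among the 9 pseudogenes with the most counts in the mimic libraries. Together they held 82.3% and 73.6% of the pseudogene counts in mimic AGO2-IP, 86.5% and 69.6% in mimic flow-through, and 93.4% and 93.9% in control AGO2-IP and flow-through. RN7SL4P had 42 and 21 counts in mimic AGO2-IP, 13495 and 35207 in mimic flow-through, and 10 and 191 in control AGO2-IP and flow-through. RN7SL5P had 77 and 38, 10856 and 21773, and 5 and 216 in the same order. Both were abundant only in flow-through. Whether these counts came from the copies or from the parent RNAs was not tested.

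Among the RN7SK pseudogenes, RN7SKP203 had 29 and 24 counts in mimic AGO2-IP, 1577 and 4468 in mimic flow-through, 24 in control AGO2-IP and 435 in control flow-through. RN7SKP80 had 50 and 46, 3180 and 1467, and then 55 and 1270. RN7SKP255 had 27 and 40, 1321 and 1442, and then 8 and 403. In all 3, every AGO2-IP library lay below every flow-through library. RN7SKP71 had 3 and 4 counts in mimic AGO2-IP, 674 and 1679 in mimic flow-through, 12 in control AGO2-IP and 220 in control flow-through.

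On the scale of mimic flow-through CPM per kb of RNA, averaged over the 2 libraries, RN7SL1 stood at 621753 and RN7SL3 at 5426. RN7SL4P at 1716 and RN7SL5P at 1058 came next, followed by RN7SKP203 at 189 and RN7SKP80 at 173. The 64 RN7SL pseudogenes without a shared window ranged from 1.67 to 143, with a median of 4.69. RN7SL674P at 143, RN7SL396P at 129 and RN7SL151P at 82.6 were among the highest of these, and RN7SL767P, named after its values were seen, stood at 130. The order of RN7SL3 and RN7SL4P held in each flow-through library, whereas RN7SKP203 and RN7SKP80 changed places between the 2 replicates.

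**Figure D2:**
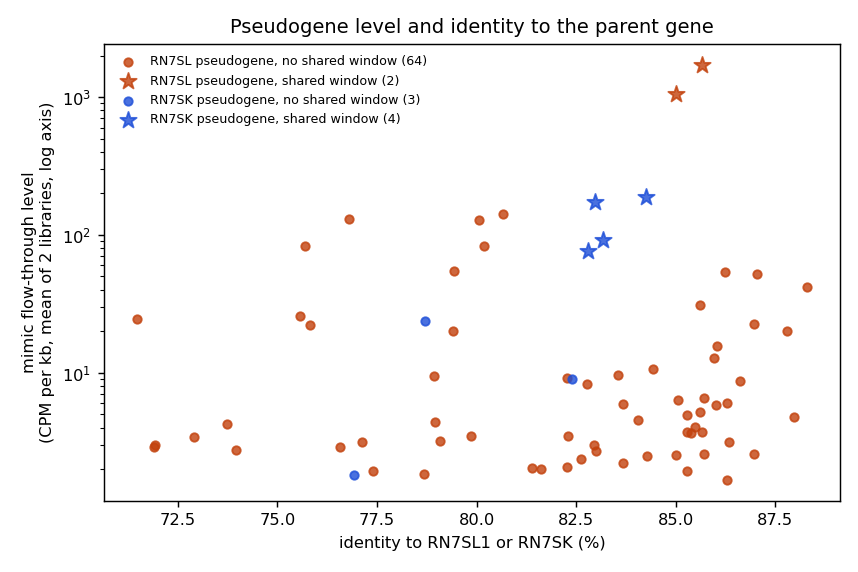
Identity of each of the 73 pseudogenes to RN7SL1 or RN7SK (horizontal axis, percent) and its mean level in the 2 mimic flow-through libraries (vertical log axis, CPM per kb); stars are pseudogenes with a 100-base window in common with a functional gene. The 2 starred RN7SL pseudogenes stand at 1716 and 1058 and all other RN7SL pseudogenes at or below 143, including copies of higher identity.

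Identity to RN7SL1 went with the level hardly at all among the 66 RN7SL pseudogenes (Spearman rho 0.11), and with rho 0.08 among the 64 without a shared window. Among the 7 RN7SK pseudogenes rho was 0.93. The points of each correlation share the libraries and the parent RNA, and the minimum count left out pseudogenes of low level, so these are descriptions of the members only.

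Since the members were chosen on counts summed over both fractions, a pseudogene that is scarce in AGO2-IP entered through its flow-through counts, which favoured lower values in AGO2-IP. Of the 75 members, 68 reached the minimum only with their flow-through counts. The other 7 members reached 50 counts in the mimic AGO2-IP libraries alone: RN7SL1, RN7SL3, RN7SL4P, RN7SL5P, RN7SKP203, RN7SKP80 and RN7SKP255. RN7SL4P had 63 AGO2-IP counts and 48702 flow-through counts, RN7SL5P 115 and 32629, RN7SKP203 53 and 6045, RN7SKP80 96 and 4647, and RN7SKP255 67 and 2763. In these 7 as well, both mimic AGO2-IP libraries lay below both mimic flow-through libraries, as they did in 28.5% of all genes tested. The 899 symbols under the minimum, which the rule left out, together had 221 and 219 counts in mimic AGO2-IP and 979 and 1985 in mimic flow-through (4.73 and 5.76 CPM against 20.8 and 40.9 CPM), so the direction was not limited to the members.

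Of the 75 members, 34 had the 200 counts needed for the test and 41 did not. edgeR's quasi-likelihood test called 27 of the 34 lower in mimic AGO2-IP, at a log2 fold change of at most -1 and an adjusted p of at most 0.05, and 0 higher. Over all 13078 genes tested, 0.413% were called lower and 0.245% higher. The 7 members not called had adjusted p of 0.0501 to 0.0813, and all 34 had an unadjusted p under 0.05. With the replicate number as a block, 34 were called lower (5.08% of all genes), and PyDESeq2 called 32 lower and 0 higher (8.24% of all genes called lower). The 27 were called by both of these too. As described, the filter favoured this direction.

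The test called RN7SL4P (log2 fold change -9.60, SE 1.01), RN7SL5P (-8.14, SE 0.90), RN7SKP71 (-8.30, SE 1.09), RN7SKP203 (-6.81, SE 0.94), RN7SKP80 (-5.38, SE 0.78) and RN7SKP255 (-5.21, SE 0.83), with adjusted p by edgeR of 0.00775 to 0.0349. RN7SKP9 (-4.84, SE 1.19, adjusted p = 0.0691) did not pass. Of the 26 RN7SL pseudogenes tested, 21 were called, and of the 6 RN7SK pseudogenes tested, 4 were called. The RN7SK pseudogenes ranged from -8.30 to -4.84 and the RN7SL pseudogenes from -14.02 to -7.19. The median over the 34 tested members was -9.57 (-7.85 with members at 0 placed at their bound), against -0.11 over all genes tested. A test of the difference between the 2 kinds of pseudogene was not made.

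Many RN7SL pseudogenes had no AGO2-IP count at all. RN7SL674P had 0 and 0 counts in mimic AGO2-IP and 429 and 3370 in mimic flow-through. With the floor of 3 counts over the 2 AGO2-IP libraries, it was at least 1142-fold lower there. RN7SL151P (0 and 0 against 206 and 2056) was at least 680-fold lower, RN7SL664P (0 and 0 against 128 and 1463) at least 478-fold lower, and RN7SL296P (0 and 0 against 185 and 1026) at least 364-fold lower. In all, 37 members were at 0 in both mimic AGO2-IP libraries, of which 12 were tested, with bounds of 71.0-fold to 1142-fold. Of the other RN7SL pseudogenes nearest to RN7SL1 in sequence, RN7SL230P (87.8% identical) had 0 and 1 counts against 194 and 390, RN7SL480P (87.0%) 0 and 1 against 101 and 1392, and RN7SL493P (87.0%) 1 and 0 against 78 and 576. All 3 were called lower (adjusted p by edgeR of 0.0349 to 0.0383). RN7SL396P had a single AGO2-IP count against 698 and 2979, a ratio of 3317 with a 95% exact counting interval of 595 to 131058. The RN7SL pseudogene without a shared window that had the most AGO2-IP counts was RN7SL521P, named for this, with 21 over the 2 libraries.

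The median fold change rested partly on a single library. Without mimic flow-through replicate 2, the 15 members still at 200 counts had a median of -7.19. Without mimic AGO2-IP replicate 2, the median of 34 was -9.73. The counts of 1 strand alone called 12 of 27 and 10 of 23, and no share of all genes called was set beside these.

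**Figure D3:**
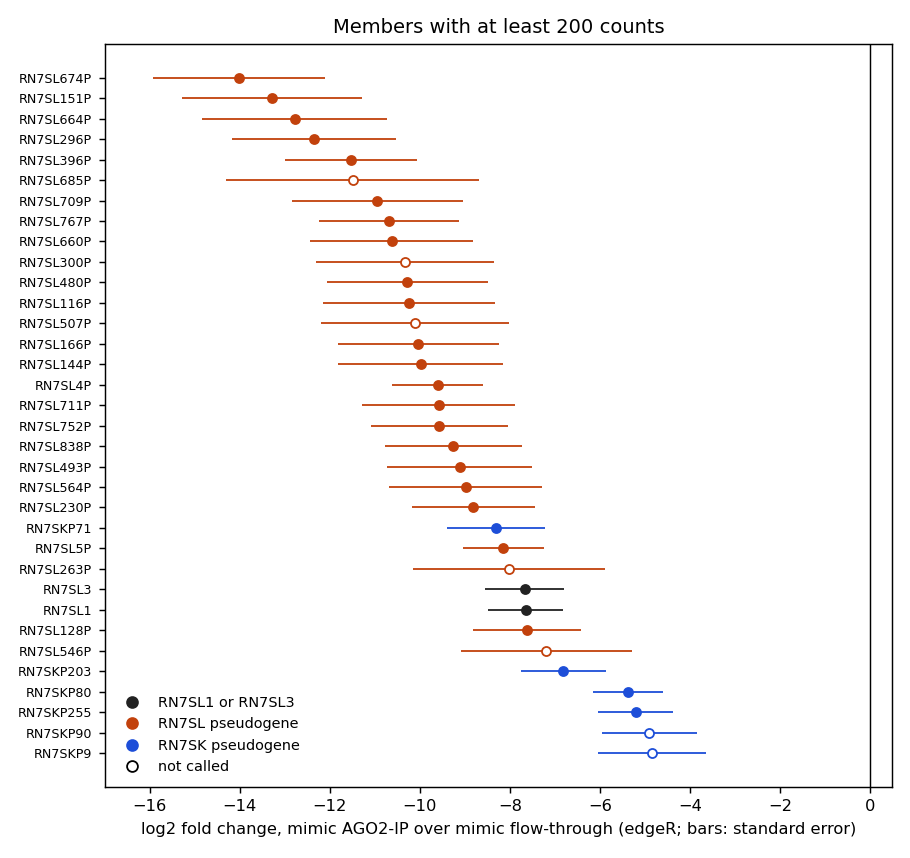
Log2 fold change of mimic AGO2-IP over mimic flow-through from edgeR, with its standard error, for the 34 members with at least 200 counts; filled points were called lower. All 34 lie between -14.02 and -4.84, RN7SL1 and RN7SL3 lie at -7.65 and -7.67, and values beyond -10 belong to members with 0 to 2 AGO2-IP counts, whose fold change depends on the prior count.

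The control libraries, which the rule did not use, had the same direction. Of the 8 members with at least 200 counts in the control pair, all 8 had a log2 ratio of control AGO2-IP over control flow-through of at most -1, a size reached by 18.1% of the 8245 genes compared. None had a ratio of at least 1, which 15.9% of genes had. RN7SL1 had -6.69, RN7SL3 -6.99, RN7SKP255 -6.20, RN7SL5P -5.78, RN7SKP80 -5.41, RN7SKP203 -4.98, RN7SL4P -4.88 and RN7SKP71 -4.87. With library size alone as the scale, which moved the median of all genes from 0.01 to 0.89, the median of the 8 went from -5.60 to -4.77. There is no p-value for these single libraries, and the flow-through supplied most of the counts by which the 8 passed.

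Between the AGO2-IP libraries, only RN7SL1 and RN7SL3 had enough counts to compare mimic with control. Their log2 ratios of mimic over control AGO2-IP were 0.55 and 0.96, and neither reached 1 or -1, while 17.4% of genes were at or below -1. Scaled to all read pairs of a library, which set the median of all genes at 3.82, the ratios were 4.39 and 4.69.

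In the flow-through, RN7SL1 and RN7SL3 had log2 ratios of mimic over control flow-through of 1.53 and 1.58. The 26 RN7SL pseudogenes compared had ratios of 2.50 to 8.81, all at or above 1, against 10% of the 12254 genes. The 6 RN7SK pseudogenes compared lay at -2.32 to -0.48, and 4 of them were at or below -1, against 10.2% of genes. By library size they lay at -1.85 to -0.01, with the median of all genes at 0.52. Scaled to all read pairs, their sign changed and they lay at 1.06 to 2.90, still below the median of all genes, 3.39. The RN7SL pseudogenes lay above the median of all genes on each of these scales, at 4.41 to 9.41 on the last.

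The rule summed mimic counts, so it favoured pseudogenes that were high in the mimic. Of the 26 RN7SL pseudogenes, 14 were at 0 in the control flow-through and 8 had 1 to 3 counts, so most ratios depended on the prior count of 2. The 14 were at least 6.33-fold to 99.1-fold higher in the mimic on the CPM scale. The 4 with more counts ranged from 3.06 to 4.73, among them RN7SL674P with 5 control counts, RN7SL4P with 191 and RN7SL5P with 216.

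Set against RN7SL1 within a library, the pseudogenes needed no scale between libraries. The 7 RN7SK pseudogenes had 2.57 and 3.46 counts for each 1000 of RN7SL1 in mimic AGO2-IP, 1.33 and 0.779 in mimic flow-through, 16.5 in control AGO2-IP and 7.41 in control flow-through. They were thus highest beside RN7SL1 in the control, and in each of the 3 pairs higher in AGO2-IP than in flow-through. The RN7SL pseudogenes had 3.22 and 2.52 in mimic AGO2-IP, 5.35 and 6.82 in mimic flow-through, 3.04 in control AGO2-IP and 1.31 in control flow-through. For them the mimic flow-through was highest and the control flow-through lowest. The rule summed mimic counts, most of them from flow-through, which favoured this order. The 899 symbols under the minimum had 979 and 1985 counts in mimic flow-through and 76 in control flow-through. In the same libraries RN7SL1 had 5379433, 12493026 and 334328. The RN7SK pseudogenes had 5.42 and 5.65 times the counts of the RN7SL pseudogenes in control AGO2-IP and flow-through, against 0.799 and 1.37 times in mimic AGO2-IP and 0.249 and 0.114 times in mimic flow-through.

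RN7SL1 and RN7SL3 together held nearly all member counts in every library. Their share was 99.42% ± 0.014 (SD, n = 2) in mimic AGO2-IP, 99.30% ± 0.064 (SD, n = 2) in mimic flow-through, 98.1% in control AGO2-IP (95% Wilson interval 97.7% to 98.4%) and 99.1% in control flow-through (99.1% to 99.2%). All members together made up 0.104% and 0.105% of gene counts in mimic AGO2-IP, 11.6% and 26.2% in mimic flow-through, 0.0793% in control AGO2-IP and 4.38% in control flow-through.

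**Figure D4:**
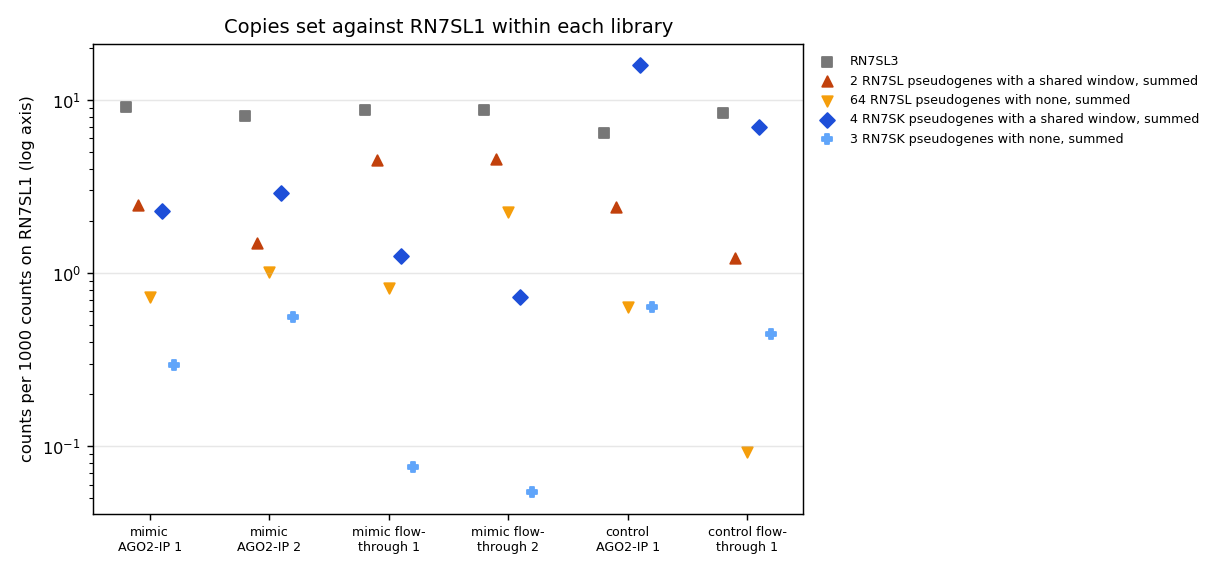
Counts of RN7SL3 and of 4 sums of pseudogenes for each 1000 counts on RN7SL1 (vertical log axis) in the 6 libraries. RN7SL3 stays between 6.41 and 9.13, while the RN7SK pseudogenes are highest in the control libraries.

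The 64 RN7SL pseudogenes that share no window with a 7SL gene differed more between the 2 mimic flow-through libraries than RN7SL1 did. They summed to 4425 counts in replicate 1 and 28229 in replicate 2, or 0.823 and 2.26 for each 1000 counts on RN7SL1. RN7SL4P and RN7SL5P together had 4.53 and 4.56 for each 1000 in the same libraries. Between these 2 libraries their sum kept step with RN7SL1 and that of the 64 did not. Singly, the count of replicate 2 over replicate 1 was 2.61 for RN7SL4P and 2.01 for RN7SL5P, against 2.32 for RN7SL1. The RN7SK copies with a shared window ranged from 0.461 (RN7SKP80) to 2.83 (RN7SKP203). The 64 entered on mimic counts that came mostly from replicate 2, which favoured a rise there. Elsewhere RN7SL4P and RN7SL5P together were lower, at 1.22 for each 1000 in control flow-through, 2.40 in control AGO2-IP and at most 2.49 in mimic AGO2-IP. In control flow-through the 64 had 31 counts, or 0.0927 for each 1000 on RN7SL1, and in mimic AGO2-IP 35 and 40 counts, or 0.731 and 1.02.

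The ratio of counts in replicate 2 over replicate 1 was 2.32 for RN7SL1 and 2.30 for RN7SL3, 0.691 at the median of all genes, 5.18 at the median of the RN7SL pseudogenes and 2.49 at the median of the RN7SK pseudogenes. It was above that of RN7SL1 in 59 of 66 RN7SL pseudogenes. Members were chosen on summed mimic counts, which for these pseudogenes came mostly from flow-through replicate 2, so the rule favoured a high ratio. The 899 symbols under the minimum had 979 counts in replicate 1 and 1985 in replicate 2. RN7SL685P, the highest, went from 3 to 638 counts and RN7SL408P from 1 to 137. The ratio fell below 1 in 2 RN7SL pseudogenes and, among RN7SK pseudogenes, in RN7SKP80. Pairs mapped to several places were 9.69% of replicate 1 and 19.2% of replicate 2. Their part in this difference was not tested.

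**Figure D5:**
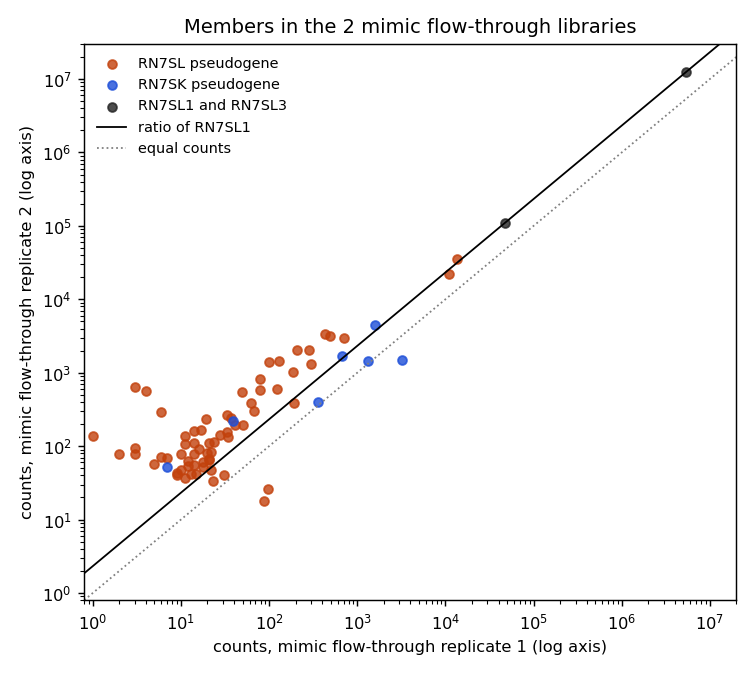
Counts of the 75 members in mimic flow-through replicate 1 (horizontal log axis) and replicate 2 (vertical log axis), with the line of equal counts and the line at the ratio of RN7SL1, 2.32. RN7SL1, RN7SL3, RN7SL4P and RN7SL5P lie near the line of RN7SL1, and 59 of the 66 RN7SL pseudogenes lie above it, a side that the minimum on mimic counts favoured.

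By position in GENCODE 44, 26 of the 66 RN7SL pseudogenes lay outside other genes, 25 in an intron on the same strand and 15 in an intron on the opposite strand. The levels of the 3 groups overlapped widely. Among those without a shared window, the medians in mimic flow-through were 5.99 CPM per kb outside genes, 3.65 in introns of the same strand and 3.19 in introns of the opposite strand. Of the 36 host genes tested, edgeR called 0 lower and 0 higher in AGO2-IP, with a median log2 fold change of -0.07. Of these hosts 9 had an unadjusted p under 0.05, and PyDESeq2 called 4 lower and 3 higher. RPS29, the host of RN7SL1 and a small ribosomal subunit protein, had -3.40 and did not pass by edgeR (adjusted p = 0.0672), but was 1 of the 4 that PyDESeq2 called lower (adjusted p = 0.000553).

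The seed match of miR-99b-5p was found in 1 of the 75 members, a share near that of all annotated transcripts of their length. The mature miRNA (RefSeq, GRCh38.p14, chr19:51692618-51692639, plus strand) is shown with its seed, bases 2 to 8, in capitals, since the mimic was meant to bring targets with this seed match into AGO2.
hsa-miR-99b-5p: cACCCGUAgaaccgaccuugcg
The match to bases 2 to 7, ACGGGT, was searched on the RNA strand of each member. Of the 75 members, RN7SKP230 alone (1.33%) had it, with 5 and 0 counts in mimic AGO2-IP and 7 and 52 in mimic flow-through. Of 7274 annotated transcripts of 240 to 340 bases, the members included, 1.37% held these letters.

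The messenger RNAs of the proteins that bind these RNAs were tested in the same libraries. Of the 8 genes of the signal recognition particle and its receptor, edgeR called 0 lower and 0 higher in mimic AGO2-IP, with a median log2 fold change of 0.51 and 2 of 8 at an unadjusted p under 0.05. SRP54, the subunit that binds signal peptides, had 212 and 227 CPM in AGO2-IP and 41.9 and 17.8 in flow-through (log2 fold change 2.93, SE 0.64, adjusted p = 0.0575 by edgeR, 0.00499 with the replicate block). SRP9, which binds the Alu domain of 7SL with SRP14, had 663 and 452 CPM against 224 and 15.9 (2.38, SE 0.90, adjusted p = 0.152, 0.0037 with the block). PyDESeq2 called both higher. In the control pair, SRP9 had a log2 ratio of -1.01 and SRP54 one of 0.37. By library size alone, with the median of all genes at 0.89, these were -0.12 and 1.26.

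Among the 7 genes of the 7SK complex and P-TEFb, 0 were called in either direction by edgeR, 2 had an unadjusted p under 0.05, PyDESeq2 called 1 higher and the median was 0.66. CCNT2, a cyclin partner of CDK9, had 36.5 and 72.0 CPM in AGO2-IP and 20.3 and 2.78 in flow-through (2.38, SE 0.84, adjusted p = 0.134 by edgeR, 0.0289 with the block). HEXIM1, which inhibits P-TEFb when bound to 7SK, had 0.53 (SE 0.61) and LARP7, which stabilizes 7SK, 0.23 (SE 0.85). Of the 12 genes of RNA polymerase III and SSB, the La protein that binds the ends of its transcripts, edgeR called 0 either way, 4 had an unadjusted p under 0.05, PyDESeq2 called 2 higher and the median was 0.43.

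Other RNAs made by RNA polymerase III could be compared in part. Of 11 such genes, 2 had enough counts, and edgeR called RNY1 lower in mimic AGO2-IP. RNY1, a Y RNA bound by the Ro protein, had 14 and 92 counts in mimic AGO2-IP, 3738 and 3934 in mimic flow-through, 38 in control AGO2-IP and 3312 in control flow-through. Its log2 fold change was -5.93 (SE 1.03, adjusted p = 0.0383 by edgeR) and its log2 ratio in the control pair was -7.30. VTRNA1-3, a vault RNA, had 5 and 6 counts in mimic AGO2-IP and 193 and 30 in mimic flow-through and did not pass (adjusted p = 0.082 by edgeR, 0.00663 with the replicate block and 0.0104 by PyDESeq2). A wider set, the snRNA and misc_RNA genes, was taken by annotated type, whichever polymerase makes them, and includes U1, U2, U4 and U5 genes. Of the 26 of these tested that were no members, RNY1 and VTRNA1-3 among them, 18 had a log2 fold change below 0 and the median was -2.54. edgeR called 3 of them lower, RNY1 and the U4 genes RNU4-1 and RNU4-2, and 0 higher. The replicate block gave 13 lower and 4 higher and PyDESeq2 12 and 4. Of these genes 8 could be compared in the control pair, with a median log2 ratio of -5.65. The RNU6 pseudogene tested, RNU6-5P, had -5.73 (adjusted p = 0.0611 by edgeR, 1.52e-07 with the block). As a sum, the 1271 RNU6 pseudogenes had 7.70 and 7.57 CPM in mimic AGO2-IP and 62.1 and 7.02 in mimic flow-through, so that their groups overlapped, and the 53 RNY pseudogenes had 0.620 and 0.605 CPM against 1.11 and 0.536.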

How the data were processed

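The deposited values were read pair counts per gene, made by the authors with STAR 2.7.11b on GRCh38 after FastQC 0.11.9 and Cutadapt 3.5, without normalization. The annotation release was not given in the sources used here, and names came from GENCODE 44. STAR counts only pairs that map to 1 place and 1 gene. Rows that name no gene held 21.4% to 95.0% of the pairs of a library and entered neither library sizes nor tests.

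Unstranded counts (column 2) of mimic AGO2-IP and mimic flow-through were compared with edgeR 4.0.16 (R 4.3.3; TMM, quasi-likelihood test) over the 13078 genes with at least 200 counts in the 4 mimic libraries, with Benjamini-Hochberg adjustment. A gene was called lower or higher when its log2 fold change reached -1 or 1 and its adjusted p did not exceed 0.05. The biological coefficient of variation was 0.527, so small differences could not be called. The fit was tested on simulated counts first. Control comparisons were log2 ratios of TMM-scaled CPM with a prior count of 2 and no p-value. The labels number the replicates of each fraction but do not say that equal numbers are 1 transfection, which was assumed here. Libraries with the same number deviated together from their groups only weakly (r = 0.32). The fit with the number as a block is given too. PyDESeq2 0.5.4 was run as the tool of the study's methods.

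Members were read from hg38, checked against GENCODE 44 transcripts (all 77 sequences, RN7SL2 and RN7SK included, were the same), and aligned globally to RN7SL1 or RN7SK with Biopython 1.88. Members and gene lists were chosen with earlier results of these data known. The genes named were the 4 functional genes, the 5 pseudogenes of each kind nearest to RN7SL1 or RN7SK, the 5 pseudogenes with the most counts per kb, the 5 largest falls, the members beside the minimum and the listed genes. RN7SL767P, RN7SL521P, RN7SL685P and RN7SKP230 were named after their values were seen. Comparisons that use the same control or flow-through libraries are not independent of each other. One gene of the lists and some stretches of sequence are not reported here.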

Additional observations from a re-analysis of the deposited data

Results flagged for a closer look

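Among the genes of the listed protein complexes reported here, 2 moved one way in both mimic pairs and the other way in the control pair. SRP9, a subunit of the signal recognition particle, had a log2 fold change of 2.38 in mimic AGO2-IP over mimic flow-through and a log2 ratio of -1.01 in the control pair. SSB, the La protein, had 2.09 and -1.32. By library size alone, which set the median of all genes in the control pair at 0.89, the control ratios were -0.12 and -0.44. Of the 8225 genes with both values, 953 (11.6%) did the same, and 19 genes of the lists reported here had both values. None of the 8 named members with both values did so. The difference was not tested for either of these genes, because each control fraction is a single library.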

How the results depend on the processing

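No median over all members reversed under an alternative. In mimic over control flow-through, the 6 RN7SK pseudogenes compared did reverse, from -2.32 to -0.48 in the main setting to 1.06 to 2.90 by all read pairs. The members that an alternative could test, 15 to 75 of them, were all lower in mimic AGO2-IP, a direction that the filter favoured. The number called moved from 27 to 12 with column 3, to 10 with column 4 and to 66 of 75 with a summed count of at least 1. Leaving out 1 library gave 15 to 32 calls and medians of -10.18 to -7.19, with 15 calls and -7.19 without mimic flow-through replicate 2. With the replicate block, 34 were called at a median of -8.89, and the change in calls concerned the 7 members beside the threshold. Without the 6 pseudogenes that share a window, an alternative chosen after seeing the data, 21 of 28 were called. The median ratio of mimic over control AGO2-IP, 0.75, was 4.54 by all read pairs, 0.67 with column 3 and 0.62 by library size. The median ratio of mimic over control flow-through, 4.52, was 5.83 by all read pairs and 1.89 to 6.08 without 1 mimic flow-through library. The share of member counts on RN7SL1 and RN7SL3 was 99.5% in mimic AGO2-IP with a minimum of 500, and 99.3% and 99.0% in control flow-through with columns 3 and 4. The cause of these shifts was not tested. At the depth of the control libraries, 3 counts were 0.371 to 0.386 CPM, and a lower level has only a bound.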
